A study of Mus musculus with 6 samples.

Results

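The genes described here carry out the shut-off and recovery arm of phototransduction, and they were measured in the newborn mouse pineal gland. The members were chosen by name and function as a list of 10 genes, namely 2 arrestins, a rhodopsin kinase, recoverin, phosducin, a transducin GTPase activator, a guanylate cyclase, 2 cyclase activators and Unc119. Earlier results of these data were known when the list was chosen. All 10 were found among the 18193 genes that the platform annotation names through a probe set of 1 gene, and 6 of them were among the 12797 genes tested. The knockout pools came from mice that were homozygous for the NeuroD1 knockout, and the wildtype pools came from mice with no such change. Strain 129 is named in the titles of the wildtype pools, and the titles of the knockout pools give no strain. Both genotypes were at postnatal day 0, lived in alternating light and dark, and had their glands dissected by day. Each genotype had 3 pools of 3 glands, and each pool was hybridised to 1 Affymetrix array after a single round of RNA amplification. The knockout is of the whole animal, and the labels do not give the deleted part of the gene.

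In photoreceptors, light-activated opsin is phosphorylated by rhodopsin kinase and then capped by arrestin, which ends its signal. Transducin is switched off when its bound GTP is hydrolysed, a step that Rgs9 speeds up, and guanylate cyclase with its calcium-sensing activators rebuilds the cyclic GMP that light removed. Pinealocytes share an evolutionary origin and many of these transcripts with retinal photoreceptors, although the mammalian pineal gland does not itself sense light. The product of Neurod1 is a proneural factor of the basic helix-loop-helix family with roles in photoreceptors, endocrine pancreas and brain, and the comparison asks how the pineal transcriptome at birth differs without it.

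Neurod1 itself had signals of 390, 524 and 122.5 in knockout pools 1, 2 and 3, against 9027, 9301 and 7519 in the wildtype pools, so its probe set followed the labels. Its log2 difference was −4.67 (SE 0.45, limma adjusted p = 0.0362). The limma adjusted p was 0.0985 without knockout pool 1, and 0.621, 0.316 and 0.376 without wildtype pools 1, 2 and 3. Signals are linear fluorescence intensities that the authors scaled to a common level, with array medians between 132 and 184. Differences are knockout minus wildtype on log2(signal + 38.6), a scale that understates the change of dim genes. Genes were left out of the test when their mean on this log2 scale was below that of a signal of about 105. Pools of the same number share a date in the labels and are therefore also compared within numbers 1, 2 and 3.

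The markers of the labelled tissue were present. Of 10 pinealocyte genes listed, 9 had a probe set and all of these passed the filter, with summed signals of 21692 to 33712 in knockout and 29870.1 to 41256 in wildtype pools. Their means were lower in knockout for 8 of 9, with 0 called and a median log2 difference of −0.44. Of 8 genes of other retinal cells, 5 had a probe set and 2 passed the filter, and the summed signal was 919.8 to 1148 in knockout and 1101 to 1224 in wildtype pools. Macrophage genes had summed signals of 7694 to 10236 in knockout and 4867 to 6017 in wildtype pools, with higher means for 5 of 5 tested. Fibroblast genes had 63878 to 91765 in knockout and 56446 to 60896 in wildtype pools, with higher means for 5 of 6. Choroid plexus genes varied between single pools, from 12752 to 103384 in knockout and from 15355 to 88924 in wildtype. Otx2 is on both the pinealocyte and the choroid plexus list, so these 2 sums are not separate. It gave 10194 of the 12752 in knockout pool 3 and 12786 of the 15355 in wildtype pool 1. No probe set of these lists was at 0. In a bulk sample, fewer pinealocytes and less RNA per pinealocyte cannot be told apart, and the part of these cell types in the results was not tested.

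The genes lie on chromosomes 1, 8, 11, 17 and X of assembly GRCm38.p6. Sag (chr1:87798143-87845158) and Pdc (chr1:150319417-150333906) share chromosome 1, and Rcvrn, Gucy2e, Unc119 and Rgs9 share chromosome 11. Guca1b (chr17:47384694-47392967) and Guca1a (chr17:47394557-47413514) are neighbours with 1589 bases between them. RefSeq promoter sequences of the same assembly were at hand for 8 of the 10 genes, in 10 windows of 250 bases before an annotated start. They were searched on both strands for TAATCC, the core motif of the homeobox factor Crx, for the E-box CANNTG that basic helix-loop-helix factors bind, and for its form CAGATG. The motif TAATCC was found in 4 windows, those of Sag, Guca1a, Gucy2e and 1 of the 3 starts of Unc119, while 6.25% of all 32851 windows hold it. CANNTG was found in 7 of the 10 windows and in 66.2% of all windows. CAGATG was found in 1 window, that of Rgs9, and in 14.4% of all. All 4 windows with TAATCC are shown, and a relation of the motif to the differences between genotypes was not tested. Each is read 5′ to 3′ on the strand of its gene, TAATCC lies on the opposite strand in all 4, and capitals mark this motif, printed as GGATTA, and the E-boxes. The TAATCC match starts 87 bases before the start of Sag, 57 before that of Guca1a, 118 before that of Unc119 and 42 before that of Gucy2e, and no E-box overlaps it. All 4 starts lie inside the annotated span of the gene, so each is 1 of several possible starts. A match describes these letters and is no evidence of binding.
Sag, chr1:87803430-87803679, plus strand: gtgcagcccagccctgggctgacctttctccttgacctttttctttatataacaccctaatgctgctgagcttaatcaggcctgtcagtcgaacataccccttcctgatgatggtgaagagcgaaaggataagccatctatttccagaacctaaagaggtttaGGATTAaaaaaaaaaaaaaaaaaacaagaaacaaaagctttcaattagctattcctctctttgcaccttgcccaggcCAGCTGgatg
Guca1a, chr17:47400607-47400856, minus strand: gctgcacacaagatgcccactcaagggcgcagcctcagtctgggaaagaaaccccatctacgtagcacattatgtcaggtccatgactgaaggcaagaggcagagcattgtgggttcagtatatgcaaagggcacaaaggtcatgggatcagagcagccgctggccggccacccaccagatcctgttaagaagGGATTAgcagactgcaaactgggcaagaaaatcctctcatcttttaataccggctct
Unc119, chr11:78345334-78345583, plus strand: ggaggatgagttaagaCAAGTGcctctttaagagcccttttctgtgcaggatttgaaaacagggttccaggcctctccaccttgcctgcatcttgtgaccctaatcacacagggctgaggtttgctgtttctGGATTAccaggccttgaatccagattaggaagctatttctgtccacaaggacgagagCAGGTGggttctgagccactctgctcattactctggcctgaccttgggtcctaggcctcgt
Gucy2e, chr11:69237023-69237272, minus strand: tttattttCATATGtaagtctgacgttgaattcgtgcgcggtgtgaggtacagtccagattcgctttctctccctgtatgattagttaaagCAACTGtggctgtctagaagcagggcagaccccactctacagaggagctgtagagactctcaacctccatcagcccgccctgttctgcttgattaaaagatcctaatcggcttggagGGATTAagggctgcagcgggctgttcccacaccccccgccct

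None of the 6 tested genes passed the threshold of an adjusted p under 0.05 in limma, in either direction. Over all 12797 genes, 0.00781% were called lower and 0% higher, and the 1 gene called was Neurod1 itself. The adjusted p was 0.998 for each of the 6, and at an unadjusted p under 0.05 the count was 0 of 6, beside 3.34% of all tested genes. With the pool number as a block that count was 2 of 6, Sag (unadjusted p = 0.0219) and Unc119 (unadjusted p = 0.0498), beside 6.24% of all tested genes, and both had a limma adjusted p of 0.768. Without knockout pool 1 it was also 2 of 6, Sag and Guca1a, beside 9.07%, and the smallest limma adjusted p of the 6 was 0.523. Both genes of each pair had lower knockout means. Without both pools numbered 1 the count was again 2 of 6, and without wildtype pool 3 it was 1 of 6. The smallest limma unadjusted p without wildtype pool 3 was 0.0338. The differences without that pool were 0.76 (SE 0.29) for Arr3, −1.07 (SE 0.47) for Sag and −1.04 (SE 0.50) for Unc119. The share of all tested genes was not computed for these settings. Sag, Unc119 and Guca1a had lower means in knockout, and Arr3, Pdc and Rgs9 higher ones, while 46.8% of all tested genes had a lower mean. The median difference of the 6 was −0.15, beside 0.03 over all tested genes. For none of the 10 genes were the knockout and wildtype signals free of overlap, whereas 10.1% of all tested genes had groups that did not overlap. The 95% intervals below are wide, so a missed threshold does not show equal levels.

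**Figure D1:**
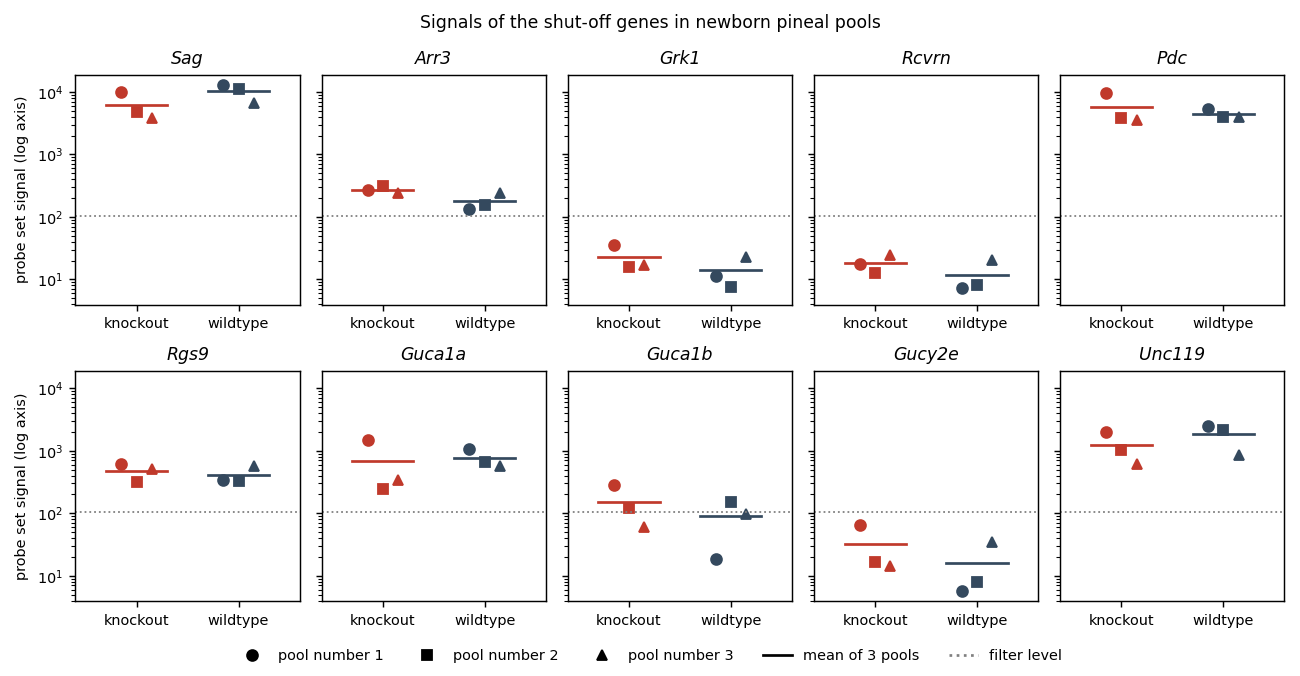
Probe set signal (log axis) of the 10 shut-off genes in 3 knockout and 3 wildtype pools, with marker shape for the pool number, a bar for the mean and a dotted line at the filter level of 105. Sag, Pdc, Unc119, Guca1a, Rgs9 and Arr3 lie above the filter level in mean log2 value, Grk1, Rcvrn and Gucy2e lie below it in every pool, and Guca1b lies on both sides.

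The arrestins differed from each other in direction. Sag, the rod arrestin gene, had signals of 10001, 4717 and 3894 in knockout pools 1, 2 and 3, against 12932, 11037 and 6638 in wildtype pools 1, 2 and 3. The groups overlapped because knockout pool 1 lay above wildtype pool 3, but within each number the knockout pool was the lower one. Sag averaged 6204 ± 3314 in knockout and 10202 ± 3229 in wildtype pools (SD, n = 3 each), a ratio of 0.608. The log2 difference was −0.78 (SE 0.43, 95% interval −1.76 to 0.20), and it was −0.37, −1.22 and −0.76 within numbers 1, 2 and 3. Leaving out knockout pool 1 gave −1.19, and leaving out knockout pool 3 gave −0.51.

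Arr3, the cone arrestin gene on the X chromosome, had signals of 267, 307 and 241 in knockout pools, against 132, 156 and 245.5 in wildtype pools. Only wildtype pool 3 reached the level of the knockout pools. The log2 difference was 0.55 (SE 0.30, 95% interval −0.13 to 1.23), and it was 0.84, 0.83 and −0.02 within the 3 numbers. The other probe sets of Arr3 gave 0.33 and 0.09, and within number 3 they gave −1.21 and −0.05. The probe set that gave 0.09 was below the filter. Over all pools the 3 probe sets share the sign of the difference, and the size and the order of the pools differ between them.

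The kinase and its calcium-dependent inhibitor had dim probe sets in both genotypes. Grk1, rhodopsin kinase, had signals of 35.5, 15.5 and 17.1 in knockout pools, against 11.4, 7.6 and 23.2 in wildtype pools. Rcvrn, the gene of recoverin, which inhibits rhodopsin kinase when calcium is high, had 17.5, 12.5 and 24.5 in knockout pools, against 7.2, 8 and 20.3 in wildtype pools. Every one of these values is below the offset of 38.6, and the genotypes overlapped for both genes. Each gene has 1 probe set, neither was tested, and detection calls were not analysed here, so their presence in the newborn gland cannot be read from these values. Within numbers 1, 2 and 3 the log2 differences were 0.57, 0.23 and −0.15 for Grk1 and 0.29, 0.13 and 0.10 for Rcvrn. Over all pools they were 0.22 for Grk1 and 0.18 for Rcvrn. With no offset the differences over all pools were 0.74 and 0.73, so at this level the offset sets much of the difference.

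The genes that act on transducin included 1 with a lower mean and 2 with higher means. Unc119, a chaperone that binds the lipid-modified end of transducin alpha and helps it move between compartments, had signals of 2038, 1026 and 624 in knockout pools, against 2483, 2138 and 855 in wildtype pools. As for Sag, the knockout pool was lower within each number while the groups overlapped, since wildtype pool 3 lay below knockout pools 1 and 2. The log2 difference was −0.58 (SE 0.51, 95% interval −1.74 to 0.58), with −0.28, −1.03 and −0.43 within the 3 numbers. Leaving out 1 pool gave −1.04 for wildtype pool 3, −0.30 and −0.40 for wildtype pools 1 and 2, −1.02 for knockout pool 1 and −0.19 for knockout pool 3. Sag and Unc119 were the 2 of 6 tested genes that were lower within all 3 numbers, beside 15.4% of all tested genes. None of the 6 was higher within all 3 numbers, which 14.9% of all tested genes were. Among all 10 genes 1 was, the dim and untested Rcvrn.

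Pdc, the gene of phosducin, which binds the beta and gamma subunits of transducin, followed 1 pool. Its signals were 9599.5, 3765.5 and 3616 in knockout pools, against 5271, 4003.5 and 4009 in wildtype pools. Knockout pool 1 was the highest of the 6, and knockout pools 2 and 3 were the lowest. The log2 difference was 0.21 (SE 0.42, 95% interval −0.74 to 1.15), with 0.86, −0.09 and −0.15 within the 3 numbers, and it turned to −0.25 without knockout pool 1.

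Rgs9, which speeds up GTP hydrolysis by transducin alpha, had signals of 619, 322 and 503 in knockout pools, against 344, 323 and 571 in wildtype pools. The groups overlapped fully, with a log2 difference of 0.20 (SE 0.33, 95% interval −0.54 to 0.94) and of 0.78, −0.00 and −0.17 within the 3 numbers. Its other probe sets gave −0.09 and −0.18, so the sign was not shared among them. The probe set that gave −0.18 was below the filter. The difference of the chosen probe set was 0.01 when knockout pool 1 was dropped, 0.44 when wildtype pool 3 or knockout pool 2 was, and −0.09 when both pools numbered 1 were.

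Of the genes that restore cyclic GMP, 1 passed the filter. Guca1a, which encodes the guanylate cyclase activating protein GCAP1, had signals of 1465, 246 and 337 in knockout pools, against 1052, 661 and 563 in wildtype pools. Knockout pool 1 was the highest of the 6 and knockout pools 2 and 3 the lowest, the same arrangement as for Pdc. The log2 difference was −0.50 (SE 0.57, 95% interval −1.80 to 0.79), with 0.46, −1.30 and −0.68 within the 3 numbers. Leaving out knockout pools 1, 2 and 3 in turn gave −1.24, −0.04 and −0.24, and leaving out wildtype pool 1 gave −0.25.

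Guca1b, the neighbouring gene, encodes the second activating protein, GCAP2, and fell below the filter. Its signals were 280, 120 and 59.8 in knockout pools, against 18.4, 150.0 and 98.4 in wildtype pools, with differences of 2.48, −0.25 and −0.48 within the 3 numbers. The positive value within number 1 rests on a signal below the offset in wildtype pool 1. The other Guca1b probe set, with differences of 2.42, −0.46 and 1.87, did not share the sign within number 3. Gucy2e, the photoreceptor guanylate cyclase gene, had 66.0, 16.4 and 14.3 in knockout pools, against 5.8, 7.9 and 34.6 in wildtype pools. Only knockout pool 1 exceeded the offset, and the gene was not tested. Over all pools the differences were 0.58 for Guca1b and 0.34 for Gucy2e, and without both pools numbered 1 they turned to −0.36 and −0.11.

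**Figure D2:**
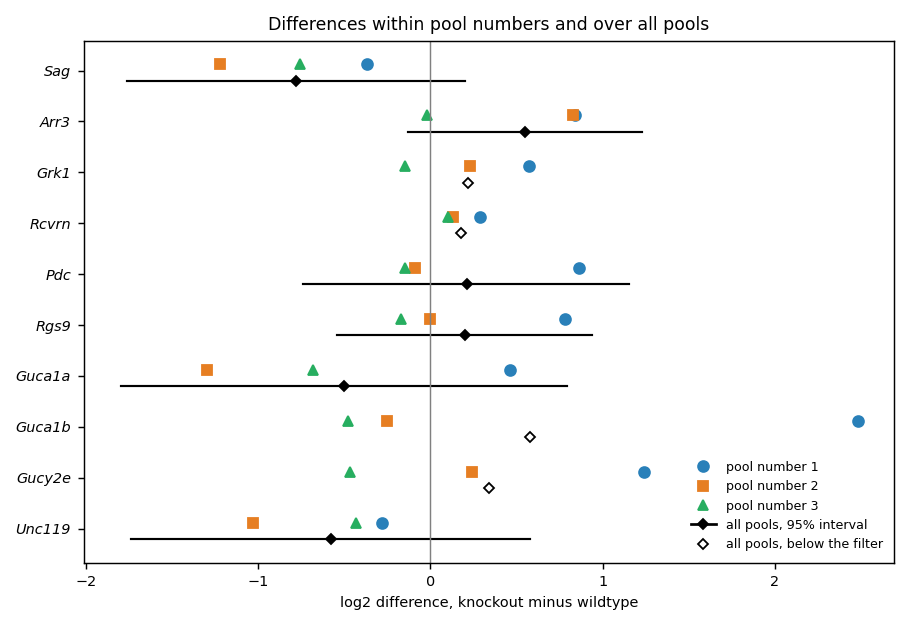
Log2 differences, knockout minus wildtype, of the 10 genes within pool numbers 1, 2 and 3 (coloured markers) and over all pools (diamonds, with the 95% interval of the limma fit for the 6 tested genes and open for the 4 below the filter). Sag and Unc119 are left of 0 for every number, and number 1 (circles) is the rightmost marker for every gene.

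The sign of the difference between genotypes was not the same in all pool numbers. Among the 6 tested genes, 2 were lower in knockout within number 1, 5 within number 2 and 6 within number 3, beside 44.3%, 49.7% and 54.4% of all tested genes. The counts for numbers 2 and 3 each include a gene with hardly any difference, Rgs9 (−0.00) within number 2 and Arr3 (−0.02) within number 3. The median difference of the 6 was 0.62, −0.56 and −0.30 within numbers 1, 2 and 3, beside 0.11, 0.00 and −0.06 over all tested genes. Within number 1, the values were higher in knockout for all 4 genes below the filter as well, and the median of the 10 genes was 0.67. The median of the 10 genes was −0.05 and −0.30 within numbers 2 and 3, 0.21 over all pools and −0.12 without both pools numbered 1. With 1 pool of each genotype per number, the change of sign was not tested.

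Relative to its mean over the 6 pools, Sag stood at 0.42, −0.66 and −0.93 in knockout pools 1, 2 and 3, and at 0.79, 0.56 and −0.17 in the wildtype pools, on the log2 scale. Unc119 stood at 0.58, −0.38 and −1.07 in knockout, and at 0.86, 0.65 and −0.64 in wildtype. Both were thus highest in the pools numbered 1 and in wildtype pool 2. Pdc and Guca1a peaked in knockout pool 1, at 1.02 and 1.22. Ribosomal protein genes stood high in the same knockout pool, with a median over 47 tested genes of 1.13. Their median was −0.27 in knockout pool 2, −0.53 in knockout pool 3 and between −0.29 and 0.01 in wildtype pools. Pinealocyte genes had a median of 0.01 in that pool, −0.32 and −0.45 in the other knockout pools and 0.13 to 0.30 in wildtype pools. The part that this pool's ribosomal transcripts have in the member values was not tested.

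**Figure D3:**
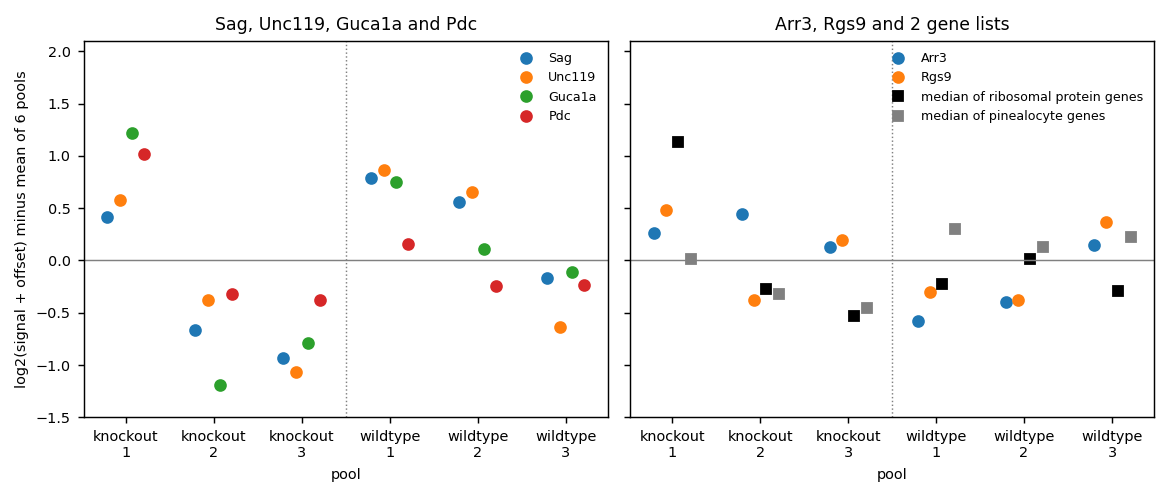
Log2(signal + offset) minus the mean of the 6 pools, for Sag, Unc119, Guca1a and Pdc (left) and for Arr3, Rgs9 and the medians of ribosomal protein and pinealocyte genes (right), by pool. In the left panel all 4 genes lie above 0 in knockout pool 1 and below 0 in knockout pools 2 and 3. The ribosomal median is at 1.13 in knockout pool 1.

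Likeness to Sag was measured as the root mean square difference of the 6 centred log2 values. Over 12791 tested genes outside the list, the closest were Cplx3 (0.0924), a complexin of ribbon synapses, Taldo1 (0.106), transaldolase of the pentose phosphate pathway, and Rraga (0.108), a Rag GTPase of amino acid sensing. Cplx3 had signals of 1436, 696 and 478 in knockout pools, against 2035, 1595 and 895 in wildtype pools, and shared with Sag the overlap of knockout pool 1 with wildtype pool 3. Among the members, Unc119 was the closest to Sag at 0.242, followed by Guca1a at 0.436 and Pdc at 0.55, while Rgs9 and Arr3 were at 0.788 and 0.935. For Rcvrn, whose values lie under the offset and hardly vary on this scale, the closest genes were Bcl7c (0.0533), Mrc1 (0.055) and Plekhm3 (0.057). All 6 values of a gene come from the same 6 arrays, so likeness includes what those arrays share.

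Other genes of phototransduction gave 0 calls in limma. Of 21 listed, 19 had a probe set and 14 were tested, with 9 lower and 5 higher means in knockout and a median difference of −0.42. Their medians within numbers 1, 2 and 3 were 0.27, −0.71 and −0.35, so number 1 was the positive one here as for the shut-off genes. Gnat2, the cone transducin alpha gene, had signals of 529, 406 and 331 in knockout pools, against 829, 762.5 and 793 in wildtype pools. It was the 1 gene of this list with lower knockout values and no overlap, which 4.33% of all tested genes showed. Its log2 difference was −0.88 (SE 0.26, limma adjusted p = 0.998). Pde6d, a prenyl-binding protein that carries phosphodiesterase subunits, had a difference of −0.69 (SE 0.32), or −0.46 without wildtype pool 1. Cngb1, a subunit of the rod cyclic nucleotide-gated channel, had one of 0.64 (SE 0.35), or 0.38 without knockout pool 1 and 0.28 without both pools numbered 1. The 5 below the filter were Opn1sw, Opn1mw, Gnat1, Pde6a and Cnga1. Pde6a and Cnga1 had higher knockout values and no overlap, which 5.77% of all tested genes showed. Their differences were 1.04 and 0.43, and every Cnga1 signal was below the offset. Gnat1, the rod transducin alpha gene, had signals between 7.7 and 28.6 in knockout and between 7.7 and 23.9 in wildtype pools. Values of these 3 genes were picked after they were seen. The other 2 listed genes were not analysed here.

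Partners of the shut-off proteins also gave 0 calls. Of 12 listed, 7 had a probe set and all 7 were tested, with 5 lower and 2 higher means and a median difference of −0.33. Gnb5, the G protein beta subunit that forms a complex with Rgs9, had signals of 529, 591 and 597 in knockout pools, against 1058, 859 and 774 in wildtype pools. Every knockout pool lay below every wildtype pool, which 4.33% of all tested genes showed. The log2 difference was −0.61 (SE 0.25, limma adjusted p = 0.998), and it was −0.25 with the mean of all Gnb5 probe sets. Rgs9bp, which anchors that complex to the membrane, had a difference of −0.20 (SE 0.28), which ran from −0.37 to −0.03 with wildtype pool 3 or 1 left out. Tulp1, a tubby-like protein of photoreceptor transport, had −0.72 (SE 0.51), between −1.18 without wildtype pool 3 and −0.28 without wildtype pool 1. Aipl1, a chaperone of phosphodiesterase, had −0.63 (SE 0.46), which became −1.16 if knockout pool 1 was dropped and −0.28 if knockout pool 3 was. Arl3, the small GTPase that releases cargo from Unc119, had signals of 10487, 2995 and 1478 in knockout pools, against 4896, 3832 and 2365 in wildtype pools. As for Pdc its highest value was in knockout pool 1, and its difference was 0.03 (SE 0.64), or −0.74 without that pool. Rgs9bp and Arl3 were named after their values were seen.

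Other relatives of the same families served as a comparison, and how widely each is expressed was not examined. Of 22 with a probe set, 17 were tested, with 10 lower and 7 higher means, a median difference of −0.08 and 0 calls. Their medians within the 3 numbers were −0.05, 0.03 and −0.09. The beta-arrestin genes Arrb1 and Arrb2, named after their values were seen, had differences of 0.34 (SE 0.43) and 0.05 (SE 0.40), which turned to −0.12 and −0.02 without wildtype pool 3. Unc119b, the paralogue of Unc119, was named in the same way and had signals of 607, 510.2 and 439.5 in knockout pools, against 568, 485 and 484 in wildtype pools, a difference of 0.01 (SE 0.25). Grk4, a receptor kinase gene, had signals of 165, 402 and 197.5 in knockout pools, against 9.7, 73.2 and 186 in wildtype pools, a difference of 1.38 (SE 0.57). Wildtype pool 3 lay within the knockout range. The Grk4 difference was 0.80 without wildtype pool 1, 0.89 with the mean of all its probe sets, 2.21 with no offset and 0.90 with the offset at the 40th percentile. Rgs7, of the Rgs9 subfamily, and Hpca, a neuronal calcium sensor related to recoverin, had differences of −0.64 (SE 0.32) and −0.57 (SE 0.39). That of Rgs7 was −0.39 without knockout pool 2, and that of Hpca −0.35 without knockout pool 3 and −0.21 without wildtype pool 1. The lists were not tested against each other.

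**Figure D4:**
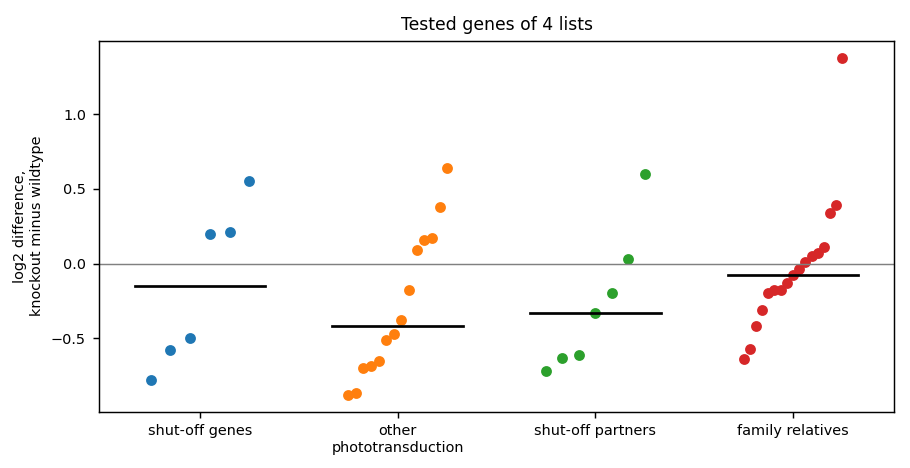
Log2 differences, knockout minus wildtype, of the tested genes of 4 lists (1 point a gene, bar at the median). The medians are −0.15 for 6 shut-off genes, −0.42 for 14 other phototransduction genes, −0.33 for 7 partners and −0.08 for 17 family relatives, and values on both sides of 0 occur in each list.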

How the data were processed

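Probe set signals were taken from the deposited table of 45037 probe sets and 6 arrays, as linear intensity values scaled by the authors: the 2% trimmed means of the deposited intensity columns lay between 499.54 and 499.96. GCOS is named in the submitters' processing notes, and the signal algorithm is not given there. No further normalization was applied. Values entered as log2(signal + 38.6), the offset being the 20th percentile. The dimmest 40% of probe sets were left out, and a gene was represented by its single-gene probe set of highest mean. The 2 genotypes were compared by limma 3.58.1 (R 4.3.3) with a variance trend, two-sided, Benjamini-Hochberg adjusted over 12797 genes at 0.05. The fit was run on simulated data in which every gene had the same spread. The shifts added there were larger than the difference over all pools of any member, so differences of that size were not covered. Median SE was 0.34, and the number of arrays limits the precision. With 3 pools a group, an exact permutation test cannot reach the threshold and was not run.

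Same-numbered pools were treated as paired in an alternative, since the labels give them a shared date and their deviations correlated by 0.32, 0.25 and 0.36 across genes. Every member is named. Of the 3 related lists, the 3 genes with the smallest p were named, and those added later are marked. Members and lists were chosen with earlier results of these data known. Alternatives changed the offset, normalization, filter, probe set choice, variance model, block and pools. Promoters came from RefSeq, GRCm38.p6, and gene identifiers of all 10 members matched it.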

Additional observations from a re-analysis of the deposited data

How the results depend on the processing

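No alternative called any of the shut-off genes: the counts of members called lower and called higher were 0 throughout, also with no filter, where all 10 were tested. A fit with the pool numbers as a replicate block left every difference as it was by construction. Its SE was 0.27 for Sag (difference −0.78) and 0.25 for Unc119 (−0.58), each at a limma adjusted p of 0.768, so the pairing changed no call. The smallest limma adjusted p of a member under any alternative was 0.523, without knockout pool 1. Over all genes the count called lower was 1, against 0 with no offset and 0 without both pools numbered 1. With single pools left out it ran from 0 to 1, and the count called higher was 0. The median difference of the 10 genes, 0.21, ran from 0.01, without knockout pool 1, to 0.36, without knockout pool 2, when single pools were left out, and it was 0.44 with no offset and −0.12 without both pools numbered 1. Dropping both also turned Pdc to −0.12, Rgs9 to −0.09, Guca1b to −0.36, Gucy2e to −0.11, Arl3 to −0.51, Arrb2 to −0.25 and Unc119b to −0.03. With single pools left out, Pdc ran from −0.25 to 0.45, Arl3 from −0.74 to 0.66, Arrb1 from −0.12 to 0.75, Arrb2 from −0.35 to 0.41 and Unc119b from −0.10 to 0.12. Quantile normalization turned Arrb2 to −0.01. The cause of these changes was not tested.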
